A study of Mus musculus with 12 samples.

Results

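Splenic regulatory T (Treg) cells that lacked working Foxp3 were compared with wild-type (WT) Treg cells by RNA sequencing. The comparison used 8 of the 12 libraries of the series, taken by their labels: WT replicates 1, 3, 4 and 5 and Foxp3-deficient replicates 1, 3, 4 and 5. The other 4 libraries, Foxp3-deficient and Rictor-deficient at once, did not enter the contrast. They entered the low-count filter, the scaling and the shared estimate of spread. All cells came from the spleens of female mice 4 weeks of age, were double-sorted as CD4+RFP+ or CD4+YFP+ cells, and went straight from the sorter into TRIzol. The labels name Foxp3∆EGFPiCre/RFPR26YFP mice, with a red reporter on the other Foxp3 allele. The second genotype they name is Foxp3∆EGFPiCre/+Rictor∆/∆R26YFP. All mice named there therefore carried the Foxp3∆EGFPiCre allele in the heterozygous state and the R26YFP reporter. The source mouse of each library is not in the labels, nor is the reporter that marked each group, and they do not tell whether a WT and a Foxp3-deficient library with the same number share a mouse. The p-values therefore measure the spread between libraries, estimated over all 12. The Cre recombinase is made from the Foxp3 locus, and the yellow reporter that Cre switches on stays on in a cell and its progeny.

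Foxp3 is the transcription factor that establishes and keeps the identity of Treg cells, which are CD4 T cells that hold immune responses in check. It acts in complexes with other factors, lowering the expression of genes such as the one for interleukin 2 and raising that of receptors through which Treg cells sense and remove growth factors and costimulatory ligands. The gene lies on the X chromosome, which is inactivated at random in females, so a heterozygous female holds cells that use the working allele and cells that use the mutated one.

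Values below are CPM (the reads of a gene relative to all assigned reads of its library, on a common scale), and 4 values in a row are replicates 1, 3, 4 and 5 in that order. Log2 fold changes (log2FC; also the values in brackets after a gene name alone) are Foxp3-deficient over WT cells from edgeR's quasi-likelihood test, so positive values are higher in Foxp3-deficient cells, and p-values were adjusted by Benjamini and Hochberg over the 13196 genes tested. A gene rose or fell where its adjusted p was under 0.05. A call is named stable where it also held, with a fold change moved by less than 1.5 times, in all 8 fits that each left out 1 library.

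Foxp3 (ENSMUSG00000039521.13; chromosome X, 7573644 to 7595245, GRCm38) was read first, since it checks the labels. It stood at 705, 580.3, 690.2 and 556 CPM in WT and at 142, 126, 117 and 87.9 CPM in Foxp3-deficient cells (log2FC −2.42, SE 0.14, adjusted p = 1.18e-08). The groups did not overlap: every Foxp3-deficient library lay far below every WT library, and none was at 0. The counts cover the whole gene and do not show which part of the mutated allele the remaining reads came from. The genes around it did not move as a block. While 6.99% of all genes tested rose and 6.74% fell, 3 of 30 genes tested within 1 Mb of Foxp3 rose and 2 fell. The risen ones were Syp (1.57), the kinase gene Pim2 (0.69) and Was (0.39), which encodes a regulator of the actin skeleton. Gata1, the erythroid transcription factor, fell (−1.33), as did Ppp1r3fos (−1.19), a noncoding transcript that overlaps Foxp3 on the same strand and whose reads may not be told apart from those of Foxp3.

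Promoter sequences were read for Foxp3 and for 4 other genes of large change, as a description of the bases in front of them. These were the 2 risen and 2 fallen genes of largest stable change among named protein-coding genes whose mean reached 10 CPM, whose groups did not overlap and for which the RefSeq table held a promoter. Larger changes occurred in genes outside these limits. Emp1 encodes a membrane protein of the PMP22 family and Fam20a a pseudokinase of the secretory pathway, and both rose. Sdc4 encodes the proteoglycan syndecan 4 and Axl a receptor tyrosine kinase, and both fell. Each sequence holds the 250 bases before the RefSeq start (GRCm38.p6), on the coding strand from 5′ to 3′, and capitals mark the motif matches named below. The windows are chrX:7579426-7579675, forward strand (Foxp3), chr6:135362681-135362930, forward strand (Emp1), chr11:109722239-109722488, reverse strand (Fam20a), chr2:164443189-164443438, reverse strand (Sdc4) and chr7:25788734-25788983, reverse strand (Axl).
Foxp3: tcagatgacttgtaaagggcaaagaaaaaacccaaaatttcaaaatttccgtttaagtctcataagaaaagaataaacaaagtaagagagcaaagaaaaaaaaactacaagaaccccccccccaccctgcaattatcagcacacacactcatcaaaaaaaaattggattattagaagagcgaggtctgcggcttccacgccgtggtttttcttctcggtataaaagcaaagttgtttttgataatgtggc
Emp1: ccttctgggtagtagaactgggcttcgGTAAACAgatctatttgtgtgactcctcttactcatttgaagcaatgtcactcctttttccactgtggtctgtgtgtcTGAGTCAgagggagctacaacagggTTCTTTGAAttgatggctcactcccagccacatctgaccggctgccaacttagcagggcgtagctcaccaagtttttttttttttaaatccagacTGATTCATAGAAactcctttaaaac
Fam20a: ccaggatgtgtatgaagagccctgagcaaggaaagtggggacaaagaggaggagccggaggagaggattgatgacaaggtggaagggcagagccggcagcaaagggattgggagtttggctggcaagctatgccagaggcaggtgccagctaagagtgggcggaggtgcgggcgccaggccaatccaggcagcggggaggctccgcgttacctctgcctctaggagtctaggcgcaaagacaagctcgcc
Sdc4: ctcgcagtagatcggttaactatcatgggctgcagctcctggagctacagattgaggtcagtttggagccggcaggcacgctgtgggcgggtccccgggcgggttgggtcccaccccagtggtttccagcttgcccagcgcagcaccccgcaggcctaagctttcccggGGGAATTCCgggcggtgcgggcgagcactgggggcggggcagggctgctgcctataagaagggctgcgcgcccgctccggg
Axl: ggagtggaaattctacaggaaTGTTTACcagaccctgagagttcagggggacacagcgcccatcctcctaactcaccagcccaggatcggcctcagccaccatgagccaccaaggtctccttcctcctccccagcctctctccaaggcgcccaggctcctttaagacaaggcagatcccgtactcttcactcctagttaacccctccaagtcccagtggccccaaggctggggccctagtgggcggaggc

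A total of 12 motifs were searched on both strands: forkhead GTAAACA, RUNX TGTGGTT, AP-1 TGANTCA, NF-kB GGGNNTTCC, CRE TGACGTCA, ETS ACCGGAAG, TCF CTTTGAT, E2F GGCGGGAA, interferon response GAAANNGAA, STAT TTCNNNGAA, NFAT GGAAAAT and KLF GGGTGTGG. The Emp1 window held the forkhead letters at 223 bases before the start, AP-1 at 145 and 25, and STAT at 120 and 22, the last AP-1 and STAT matches overlapping. The Axl window held the forkhead letters on the opposite strand at 229 and the Sdc4 window NF-kB at 81, while the windows of Foxp3 and Fam20a held none of the 12. Among all 27025 promoter windows in the table, 3.06% held forkhead, 6.85% AP-1, 4.85% NF-kB and 7.14% STAT. These matches describe letters only. A comparison of motif shares between risen and fallen genes is void, because the table holds promoters for 75.2% of the risen and 72% of the fallen genes, under the 80% needed.

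Depth ran from 15769737 to 26114044 reads assigned to genes per library, and none of 7 quality measures separated the groups by an exact two-sided permutation test (lowest p = 0.0571 for genes detected, 0.4 after Benjamini-Hochberg adjustment over the 7; 4 against 4 libraries cannot go below 0.0286). The Foxp3-deficient libraries differed more from each other than the WT libraries did. The biological coefficient of variation was 24.8% in Foxp3-deficient and 12.4% in WT cells, and 17.4% in 1 fit over all 3 groups. Of 8353 genes whose mean reached 10 CPM, 6495 (77.8%) had the larger standard deviation of log2 CPM in Foxp3-deficient cells. In a principal component analysis of the 8 libraries, component 1 (47.7% of the variance) held the groups apart, from −40.1 to −35.5 in WT and from 28.6 to 51.7 in Foxp3-deficient cells. Component 2 (18.3%) put Foxp3-deficient 1 at 44.5 and Foxp3-deficient 3 at −48.1, while component 3 (13%) set Foxp3-deficient 5 apart at −40.6.

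**Figure D1:**
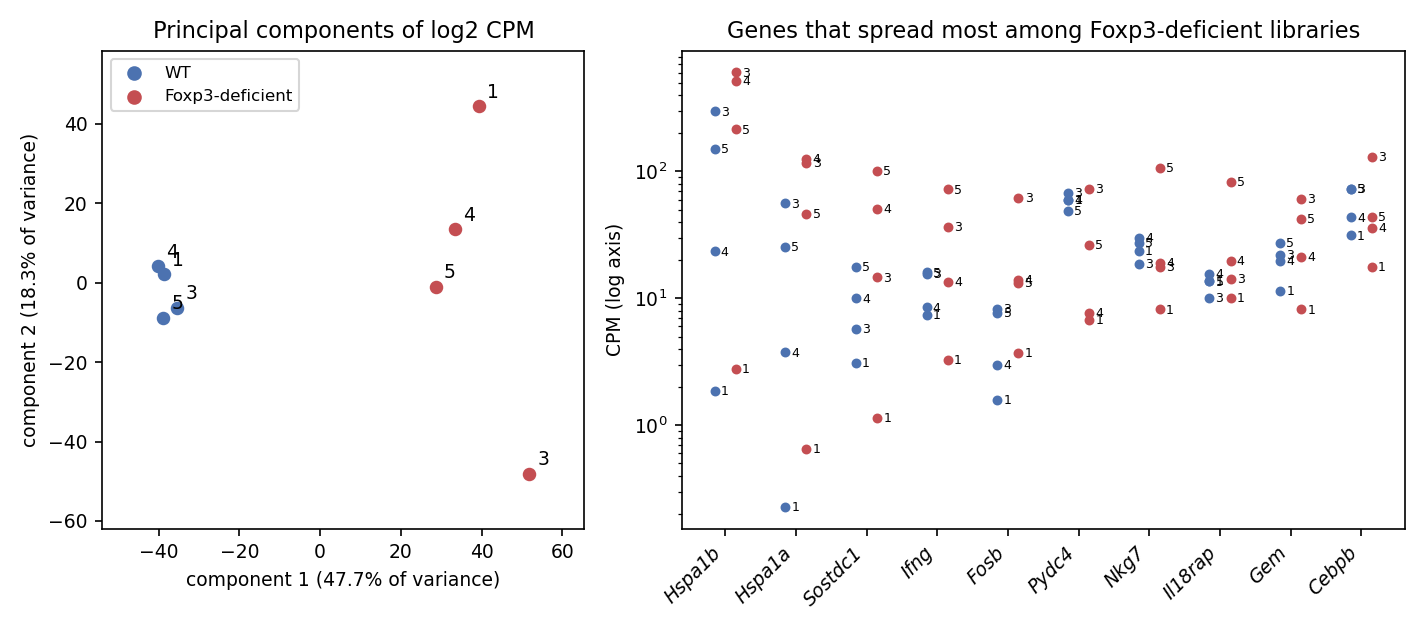
Left: the 8 libraries on components 1 and 2 of log2 CPM, with replicate numbers; WT libraries lie together and the Foxp3-deficient libraries lie along component 2. Right: CPM (log axis) by library of the 10 genes with the largest spread among Foxp3-deficient libraries, with replicate numbers beside the points.

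The genes that spread the most among Foxp3-deficient libraries were Hspa1b, Hspa1a, Sostdc1, Ifng, Fosb, Pydc4, Nkg7, Il18rap, Gem and Cebpb, and none of the 10 passed the test. The heat shock gene Hspa1b stood at 1.87, 296, 23.4 and 149 CPM in WT and 2.76, 601, 514 and 214 CPM in Foxp3-deficient cells, low in replicate 1 of both groups, and its near-identical neighbour Hspa1a behaved likewise at 0.227, 55.9, 3.75 and 25.4 and 0.6496, 116, 125 and 45.95 CPM, with reads that may have been split between the pair. Ifng, which encodes interferon gamma, stood at 7.44, 15.6, 8.48 and 16.01 CPM in WT and 3.25, 36.3, 13.4 and 72.003 CPM in Foxp3-deficient cells (log2FC 1.40, SE 0.72, adjusted p = 0.262), lower than WT in replicate 1 and higher in replicates 3 and 5. Foxp3-deficient 5 held high levels of Nkg7, a cytotoxic granule protein (8.17, 17.7, 18.96 and 107 CPM in Foxp3-deficient cells against 23.5, 18.8, 30.1 and 27.4 CPM in WT), and of Il18rap, a chain of the interleukin 18 receptor (10.01, 14.2, 19.6 and 83.1 CPM against 13.8, 10.04, 15.5 and 13.6 CPM). Pydc4 stood at 59.4, 67.97, 59.7 and 48.5 CPM in WT and 6.71, 72.5, 7.697 and 26.4 CPM in Foxp3-deficient cells, near the WT level in Foxp3-deficient 3 and lowest in Foxp3-deficient 1 and 4. The activator protein gene Fosb, the GTPase gene Gem and Cebpb were highest in Foxp3-deficient 3, while Sostdc1, an inhibitor of BMP signals, was lowest in Foxp3-deficient 1 and highest in Foxp3-deficient 5. These 3 libraries thus stand apart in different genes, which is why calls are followed below through each fit without 1 library.

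Markers of CD4 T cells were high in both groups. Cd3e was high throughout, Cd4 rose modestly (log2FC 0.51, SE 0.11, adjusted p = 0.00327), and Cd8a had 17 reads over the 4 WT and 23 over the 4 Foxp3-deficient libraries. Other markers of CD8 T and NK cells were detected in both groups: Cd8b1 had 1534 and 1311 reads, the perforin gene Prf1 had 1233 and 1024 reads, and Cd160 had 1679 and 967 reads. Of 7 markers of that list tested, none passed edgeR's test, 2 were higher and 2 lower at an unadjusted p under 0.05, and DESeq2 called 2 and limma-voom 1. Their summed level ran from 57.3 to 64.5 CPM in WT and from 42.6 to 64.8 CPM in Foxp3-deficient libraries, and their part in the results was not tested. Of 12 B cell markers in the table, 7 could be tested and 5 fell, none rising, while 6.74% of all genes tested fell and 6.99% rose. The summed level of the 12 ran from 1267 to 1501 CPM in WT and from 673 to 836 CPM in Foxp3-deficient libraries. Most of that sum was Ighm (1368 CPM in WT and 733 CPM in Foxp3-deficient cells, log2FC −0.90, SE 0.088, adjusted p = 4.07e-06), the constant region of the mu heavy chain, whereas the defining marker Ms4a1 had 4 reads in all of WT and 0 in Foxp3-deficient cells. Cd79b had 1826 reads in WT and 653 in Foxp3-deficient libraries, Ighd 579 and 69, Fcmr 426 and 10, Bank1 489 and 222, and Cd79a 134 and 71. The members with more reads in Foxp3-deficient libraries were Pax5 (2 and 6) and Ebf1 (6 and 11). Of 13 myeloid markers in the table, S100a8, S100a9 and Adgre1, which define granulocytes and macrophages, were at 0 in all 8 libraries. The summed myeloid level ran from 4.19 to 4.80 CPM in WT and from 3.68 to 4.60 CPM in Foxp3-deficient libraries. Of 4 myeloid markers tested, the Fc receptor gene Fcgr3 rose, with 19 reads in WT and 54 in Foxp3-deficient libraries, while Itgam (14 and 48 reads) and Cd68 (195 and 129 reads) did not pass. The part of B cell RNA in the results below was not tested. Since the libraries are bulk RNA, fewer cells of a kind and less RNA per cell cannot be told apart.

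Of 7 markers of gamma delta and other innate-like T cells tested, 4 rose and 0 fell (Cd163l1, Tcrg-C1, Tcrg-C2 and Zbtb16). Among all genes tested, 6.99% rose and 6.74% fell. Zbtb16 had 0 reads in WT and 4, 0, 5 and 3 reads in Foxp3-deficient libraries. It was tested because the low-count filter ran over all 12 libraries, so its call rests on very few reads. The summed level of the list (8 genes in the table) ran from 13.9 to 20.1 CPM in WT and from 28.8 to 49.4 CPM in Foxp3-deficient cells. The scavenger receptor gene Cd163l1, a marker of gamma delta T cells that make interleukin 17, had 4, 0, 0 and 0 reads in WT and 245, 108, 152 and 60 reads in Foxp3-deficient libraries (log2FC 7.13, SE 0.75, adjusted p = 6.72e-06, and 6.63 to 10.28 over the fits without 1 library). Tcrg-C1, a gamma chain constant region, had 46, 46, 69 and 92 reads against 179, 423, 460 and 281 reads (log2FC 2.58, SE 0.29, adjusted p = 1.52e-05), and its paralogs can share reads with it. Sox13 had 4 reads in all of WT and 52 in Foxp3-deficient cells, and did not pass the low-count filter over the 12 libraries. Tcrg-C4, another gamma chain constant region, had fewer reads in Foxp3-deficient libraries (328 in WT and 220), as did Blk (26 and 16), and neither was called. Trdc, the delta chain constant region, was even at 739 and 609 reads (log2FC −0.17, SE 0.18, adjusted p = 0.628). These values stand beside the genes of the interleukin 17 program described below, and their part in those results was not tested.

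**Figure D2:**
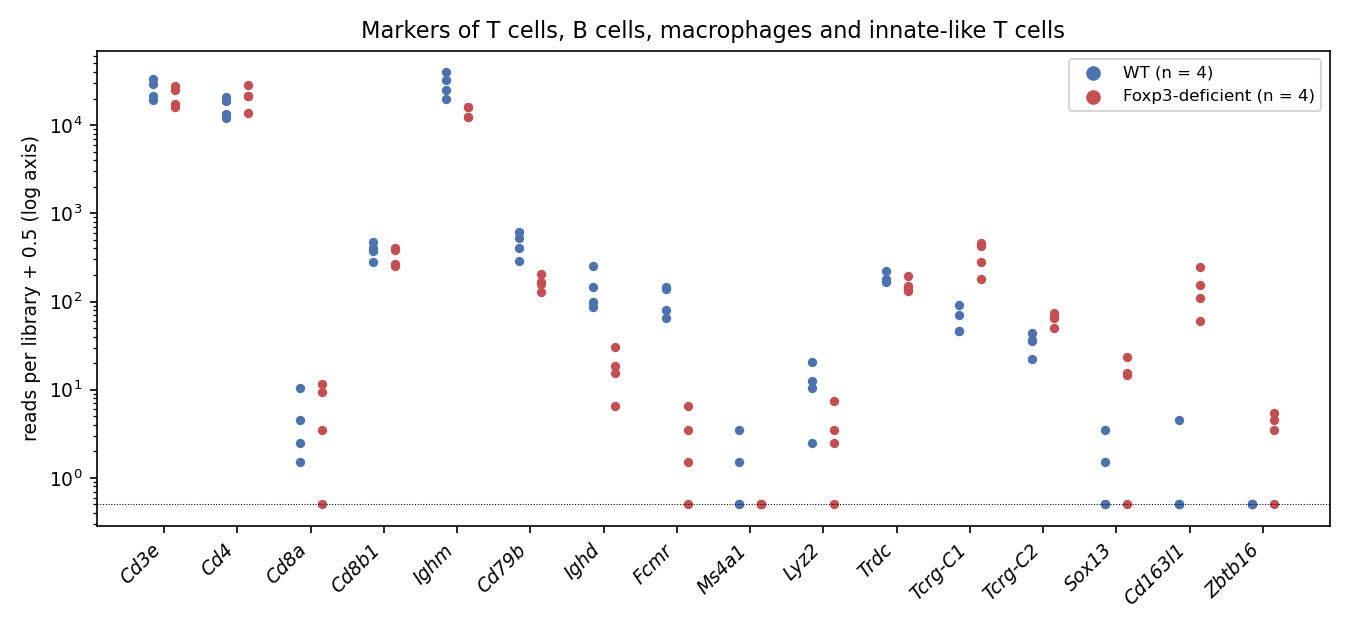
Reads per library plus 0.5 (log axis; the dotted line is 0 reads) of markers of CD4 and CD8 T cells, B cells, macrophages and innate-like T cells, with 1 point per library. Ighm, Cd79b, Ighd and Fcmr are lower in the 4 Foxp3-deficient libraries while Ms4a1 stays at or near 0 reads. Cd163l1 and Tcrg-C1 are higher in the 4 Foxp3-deficient libraries.

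Of the 13196 genes tested, 1812 (13.7%) passed the test: 923 (6.99%) rose and 889 (6.74%) fell. Of the calls, 1049 were stable (516 risen and 533 fallen). In 2346 genes (17.8%) the libraries of the groups did not overlap. The changes were mostly modest, since the median size of a change was 1.63-fold among risen and 1.98-fold among fallen genes, and 781 genes (344 risen, 437 fallen) differed at least 2-fold, 337 at least 4-fold and 153 at least 8-fold. Risen genes took up 9.88% to 10.6% of the reads in WT and 13.4% to 15.1% in Foxp3-deficient libraries, and fallen genes 6.63% to 7.21% and 3.82% to 4.28%. At the other end, 6722 genes (50.9%) had a 95% interval of the fold change that lay wholly within 1.5-fold in either direction, 249 of them also called. The data left 4911 genes neither called nor bounded in this way. The share of tested genes called ran from 10.4% to 16.8% over the chromosomes.

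**Figure D3:**
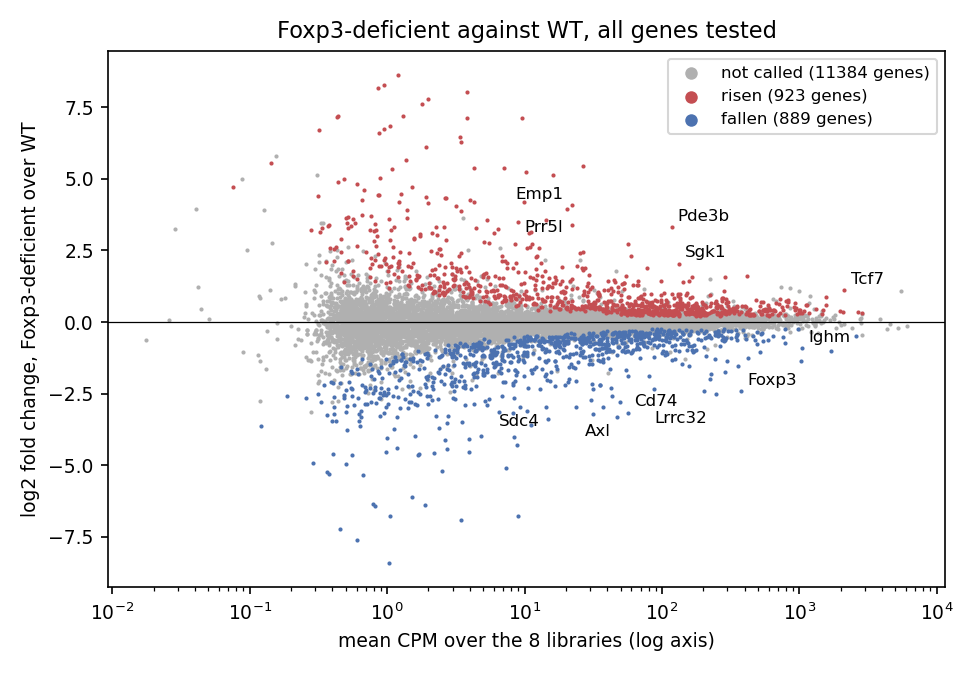
Log2 fold change (Foxp3-deficient over WT) of the 13196 genes tested against their mean CPM over the 8 libraries (log axis), coloured by call, with genes of the text named. Large changes occur at all but the highest levels, in both directions.

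The gene lists described next were read against those background shares and against a median log2 fold change over all genes of 0.00045. They were ordered by the role of their members, from nuclear regulators through signals, receptors and signalling to effector molecules, the cell cycle and metabolism.

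**Figure D4:**
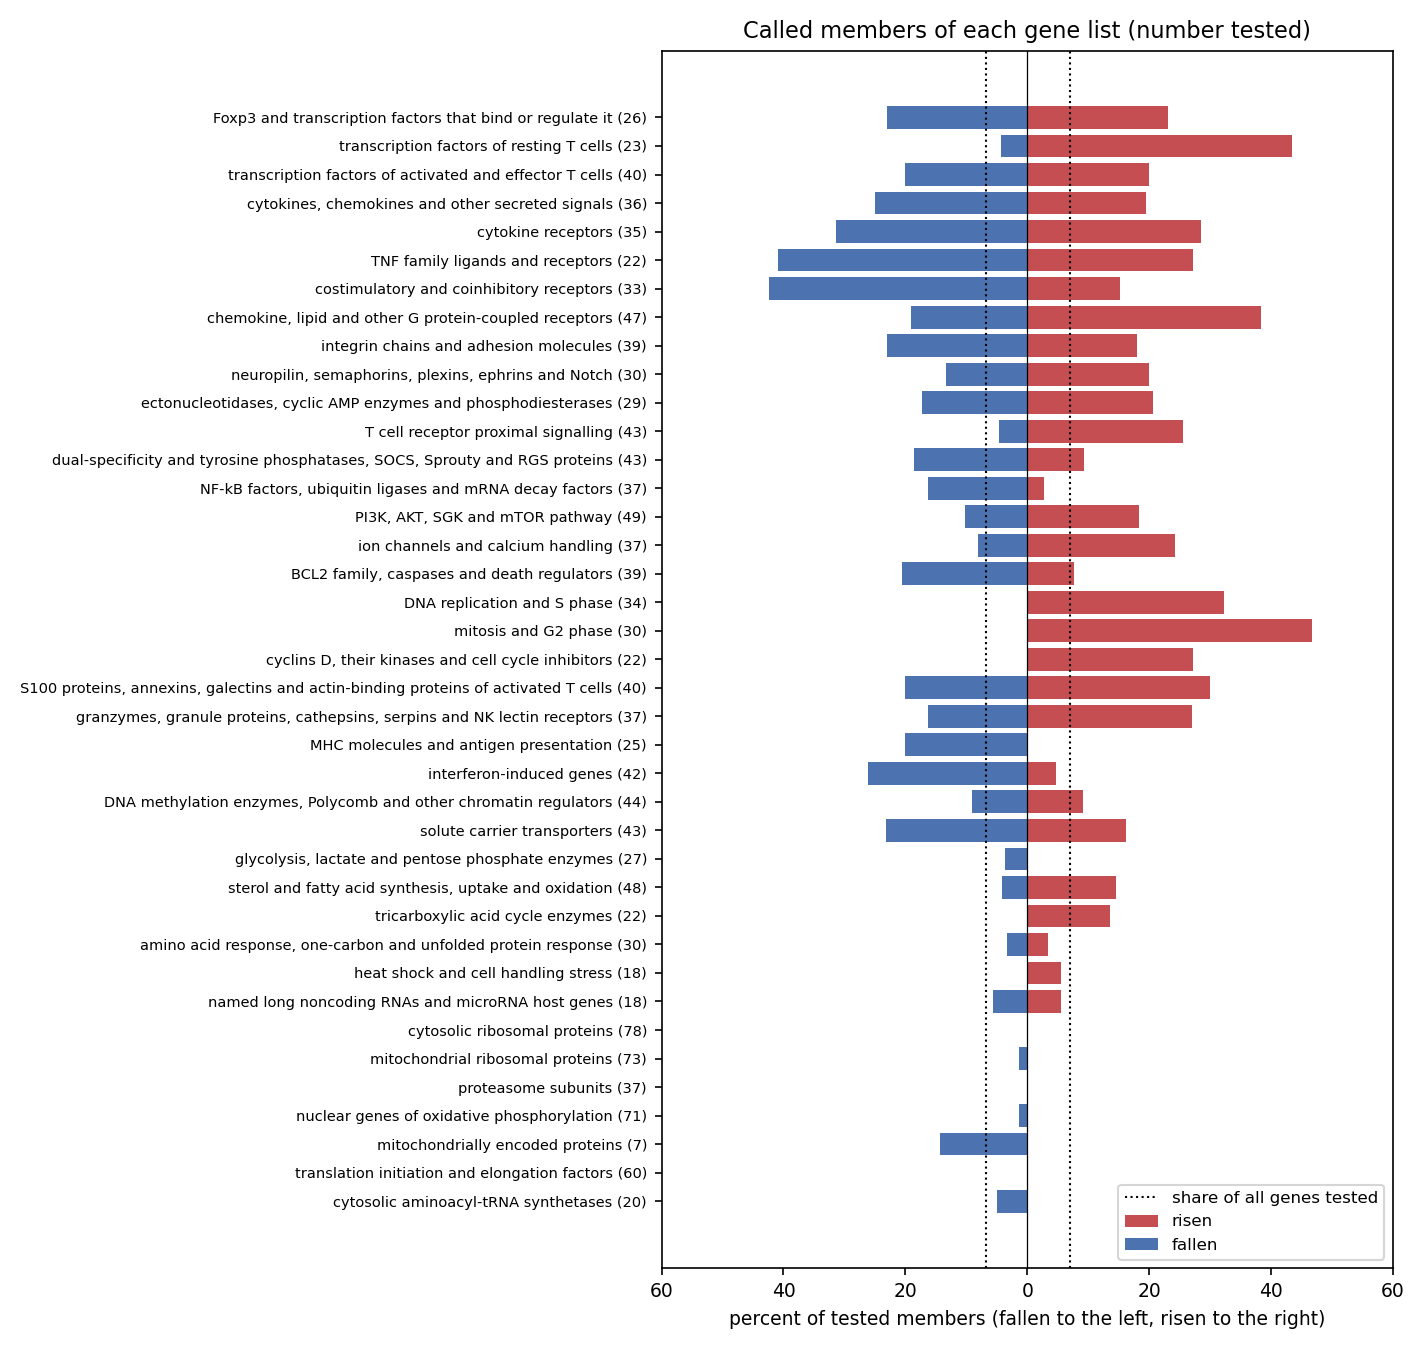
Percent of tested members of each gene list that rose (right) or fell (left), with the number tested in brackets; the dotted lines mark 6.99% risen and 6.74% fallen among all genes. Mitosis, replication and cell cycle lists have no fallen member, costimulatory and TNF family lists have many, and the cytosolic ribosomal, proteasome and translation factor lists have no called member.

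Among 26 tested genes for Foxp3 and factors that bind or regulate it, 6 rose and 6 fell (4 and 4 stable; median 0.047). The Ikaros family split by member. Ikzf2 (Helios), which is characteristic of Treg cells, stood at 283, 309, 371 and 424 CPM in WT and 144, 97.4, 194 and 125 CPM in Foxp3-deficient cells (log2FC −1.31, SE 0.18, adjusted p = 1.51e-04), and Ikzf4 (Eos), a corepressor that binds Foxp3, fell too (−0.75). Ikzf1 (Ikaros) went the opposite way, from 142, 149.9, 149 and 156 CPM to 239, 221, 277 and 228 CPM (log2FC 0.69, SE 0.081, adjusted p = 2.03e-05), and Ikzf3 (Aiolos) rose less (0.40). The groups overlapped in none of these 4 genes, which were named from called genes, nor in 17.8% of all genes tested. Gata3, which Treg cells use for their maintenance, fell (−0.44), while Nfatc3 (0.44) and Smad2 (0.31), which relay T cell receptor and TGF-beta signals, rose slightly.

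Most called factors of resting T cells rose: 10 of 23 rose and 1 fell (8 and 1 stable; median 0.25). Tcf7 encodes TCF1, a factor of naive and memory-like T cells, and its level was 1413, 1332, 1362 and 1295 CPM in WT and 3132, 2680.5, 2999 and 2818 CPM in Foxp3-deficient cells (log2FC 1.11, SE 0.071, adjusted p = 3.50e-08). The lowest Foxp3-deficient value lay far above the highest WT value. Its relative Lef1 (0.59), the chromatin organizer Satb1 (0.68), Sox4 (1.48), Myb (1.11), Foxp1 (0.40), the E protein gene Tcf3 (0.32) and Klf2 (0.59), which drives exit from lymphoid tissue, rose as well. Id3, an inhibitor of E proteins, was the fallen member, at 208, 168, 175 and 157 CPM in WT and 55.5, 107, 82.7 and 105 CPM in Foxp3-deficient cells (log2FC −1.02, SE 0.16, adjusted p = 3.82e-04).

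Factors of activated and effector T cells split evenly, 8 rising and 8 falling of 40 (5 and 4 stable; median 0.29). Nr1d1, a repressor of the circadian clock, had 12.9, 10.96, 12.5 and 10.5 CPM in WT and 42.9, 64.7, 35.6 and 29.4 CPM in Foxp3-deficient cells (log2FC 1.88, SE 0.21, adjusted p = 1.23e-05). Ahr, the aryl hydrocarbon receptor, which cells of the interleukin 17 type express, rose too (0.89). Id2, the partner family member of Id3, rose from 69.5, 80.8, 79.1 and 85.1 CPM to 119, 245, 173 and 292 CPM (log2FC 1.40, SE 0.22, adjusted p = 6.32e-04), opposite in direction to Id3. Zbtb32, a repressor of T cell proliferation, rose (1.18). Prdm1 (Blimp1), at 39.96, 35.6, 56.8 and 49.996 CPM in WT and 23.4, 28.8, 16.7 and 25.6 CPM in Foxp3-deficient cells (log2FC −0.95, SE 0.16, adjusted p = 7.14e-04), led the fallen factors named from this list, with Irf8 (−0.87), Egr2 (−0.74) and Tox (−0.69). Irf8 was also among the dendritic cell markers (5942 reads in WT and 2935 in Foxp3-deficient libraries), which moved in both directions. Zbtb46 (477 and 176), Bst2 (4798 and 3127), Tcf4 (486 and 377) and Cd209a (1 and 0) had fewer reads in Foxp3-deficient libraries. Ccr9 (952 and 2432), Xcr1 (75 and 112), Flt3 (0 and 7), Itgax (0 and 7) and Siglech (0 and 8) had more. The part of dendritic cells was not tested. Batf (−0.71) and Irf4 (−0.47), which drive effector Treg differentiation, also fell, but Batf lost its call without Foxp3-deficient 3 or 4 or any of the 4 WT libraries (−0.91 to −0.49 over the fits without 1 library) and Irf4 without Foxp3-deficient 4 or any WT library (−0.55 to −0.34). Tbx21, the factor of type 1 helper cells, stood at 28.4, 21.1, 22.7 and 27.8 CPM in WT and 23.01, 19.1, 26.9 and 113 CPM in Foxp3-deficient cells, high in Foxp3-deficient 5 alone. It did not pass (log2FC 0.87, SE 0.51, adjusted p = 0.326; 95% interval −0.25 to 1.995).

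Secreted signals gave 7 risen and 9 fallen members of 36 (2 and 7 stable; median −0.17). Among those made by Treg cells to restrain others, Ebi3, a subunit of interleukin 35, had 14.9, 13.9, 14.2 and 14.8 CPM in WT and 1.89, 1.41, 2.17 and 3.64 CPM in Foxp3-deficient cells (log2FC −2.64, SE 0.26, adjusted p = 3.62e-06). Fgl2, a secreted fibrinogen-like suppressor, fell in parallel, from 51.5, 43.96, 66.8 and 50.8 CPM to 7.903, 5.95, 8.52 and 9.71 CPM (−2.72). Penk, the precursor of enkephalins, had 122, 149, 158 and 156 CPM in WT and 14.99, 24.6, 29.3 and 45.9 CPM in Foxp3-deficient cells, the latter spread over a wide range yet wholly below WT (log2FC −2.34, SE 0.32, adjusted p = 3.27e-04). The growth factor gene Bmp7 (−1.63), the matrix protein gene Ecm1 (−0.67) and the lymphotoxin gene Lta (−0.73) fell also. Il10 (log2FC −0.83, SE 0.61, adjusted p = 0.452) and Tgfb1 (log2FC −0.11, SE 0.088, adjusted p = 0.484), the best known suppressive cytokines, did not pass, and of them Tgfb1 had a 95% interval of −0.30 to 0.075.

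The risen cytokines were low or off in WT. Tgfb3, a TGF-beta isoform made by cells of the interleukin 17 type, stood at 1.31, 1.11, 1.06 and 0.674 CPM in WT and 23.9, 12.7, 19.5 and 18.6 CPM in Foxp3-deficient cells (log2FC 4.18, SE 0.34, adjusted p = 5.20e-07). Il2 rose from 0.284, 0.308, 0.257 and 0.505 CPM to 0.6496, 1.23, 1.81 and 2.73 CPM (log2FC 2.23, SE 0.45, adjusted p = 0.00246), so it remained a low transcript even though Foxp3 is known to restrain it. Il17a had 1 read over all WT libraries and 253 over the Foxp3-deficient ones, at 0.812, 9.21, 2.27 and 1.91 CPM in each, and Il17f had 1 and 147 reads, most of them in Foxp3-deficient 3 (0.487, 5.46, 1.24 and 1.08 CPM). Both kept their calls in all 8 fits without 1 library, with log2 fold changes from 6.56 to 9.11 for Il17a and 5.72 to 8.40 for Il17f. Ccl20, the ligand of Ccr6, stood at 0.341, 0.308, 0.367 and 0.295 CPM in WT and 6.77, 28.5, 12.6 and 7.98 CPM in Foxp3-deficient cells (log2FC 5.37, SE 0.54, adjusted p = 1.20e-05). Every Foxp3-deficient library lay above every WT library for Tgfb3, Il2, Il17a and Ccl20, named from called genes. Over all genes tested, 17.8% had no overlap in either direction.

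Cytokine receptors were among the lists with the highest share of called members, 10 risen and 11 fallen of 35 (9 and 10 stable; median 0.10). The receptors for interleukin 2 and interleukin 7 moved in opposite directions. Il2ra, the high-affinity chain by which Treg cells take up interleukin 2, stood at 558, 518, 535 and 524 CPM in WT and 214, 165, 207 and 155 CPM in Foxp3-deficient cells (log2FC −1.53, SE 0.11, adjusted p = 2.22e-07), and Il2rb, the signalling chain, at 1479, 1390.2, 1521 and 1546 CPM and 611, 423, 530.2 and 748 CPM (−1.36). Il7r, the survival receptor of conventional T cells, rose from 198, 212, 204 and 180.3 CPM to 356, 389, 374 and 318 CPM (log2FC 0.85, SE 0.086, adjusted p = 5.04e-06). The groups overlapped in none of the 3, which were named from called genes, nor in 17.8% of all genes tested.

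The interleukin 1 family receptors moved in both directions. Il1r1, the signalling receptor for interleukin 1, was at 0.511, 0.616, 0.294 and 0.295 CPM in WT and 5.36, 3.01, 4.598 and 3.598 CPM in Foxp3-deficient cells (log2FC 3.30, SE 0.39, adjusted p = 2.01e-05), and Il1r2, its decoy, at 28.6, 29.7, 52.9 and 57.5 CPM and 2.22, 5.34, 5.84 and 7.89 CPM (log2FC −2.98, SE 0.32, adjusted p = 1.54e-05). Il1rl2, a receptor for interleukin 36 (2.29), and Il18r1 (1.30) rose, while Il1rl1 (ST2), the receptor for interleukin 33 found on tissue Treg cells, fell (−2.08). Il23r, which sustains cells of the interleukin 17 type, rose from a low level (0.581 to 2.27 CPM, log2FC 1.94, SE 0.32, adjusted p = 5.28e-04). Among TGF-beta receptors, Tgfbr2 (0.70) and Tgfbr3 (1.61) rose and Tgfbr1 fell (−0.56), and both interleukin 10 receptor chains fell, Il10ra (−0.84) and Il10rb (−0.64).

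In the TNF family, 6 of 22 tested members rose and 9 fell (2 and 7 stable; median −0.23). The costimulatory receptors of Treg cells fell together. Tnfrsf4 (OX40) stood at 370.03, 303, 381 and 363 CPM in WT and 84.2, 94.02, 114 and 111 CPM in Foxp3-deficient cells (log2FC −1.81, SE 0.13, adjusted p = 9.35e-08). Tnfrsf9 (4-1BB) followed at 344, 329.7, 363 and 393 CPM and 97.98, 70.2, 94.95 and 97.3 CPM (log2FC −1.99, SE 0.10, adjusted p = 4.54e-09). Tnfrsf8 (CD30, −3.09), Tnfrsf1b (TNF receptor type 2, −1.27), Tnfrsf18 (GITR, −1.17) and Cd27 (−0.61) fell also. The stable risen members were ligands: Cd40lg, by which helper T cells activate B cells, at 49.9, 56.8, 52.7 and 52.7 CPM in WT and 119.6, 122, 153 and 177 CPM without Foxp3 (log2FC 1.43, SE 0.11, adjusted p = 4.58e-07), and Tnfsf8, the ligand of CD30 (0.57). The ligand for CD30 thus rose while the receptor fell.

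Costimulatory and coinhibitory receptors fell more often than they rose, 14 against 5 of 33 (11 and 3 stable; median −0.29). Cd83, a marker of activated Treg cells, had 323, 297, 366 and 372 CPM in WT and 42.7, 54.7, 65.4 and 90.4 CPM in Foxp3-deficient cells (log2FC −2.42, SE 0.19, adjusted p = 5.20e-07), the largest stable fall of this list at a level above 100 CPM in WT. Cd200r1, an inhibitory receptor (log2FC −1.28, SE 0.16, adjusted p = 2.97e-05), Cd81 (−1.06), Cd86 (−0.98), Icos (−0.73) and the ligand genes Pdcd1lg2 (−1.76) and Cd274 (−0.59) fell as well. Ctla4, the inhibitory receptor on which Treg function depends, stood at 319, 367, 343 and 368 CPM in WT and 203, 387, 178 and 214 CPM in Foxp3-deficient cells. The difference did not pass (log2FC −0.51, SE 0.18, adjusted p = 0.0857), and the 95% interval was −0.90 to −0.12. Pdcd1 (PD-1, −1.01) was called by a small margin and lost the call without Foxp3-deficient 1, 3 or 4 or any of the WT libraries (−1.38 to −0.80 over the fits without 1 library). Tigit (−2.07) lost it without Foxp3-deficient 3 or 4 or WT 4 or 5 (−2.77 to −1.71). Slamf6, a marker of less differentiated T cells (0.57), Cd6 (0.46) and the collagen receptor gene Lair1 (1.27) were the stable rises.

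G protein-coupled receptors tilted the other way, with 18 risen and 9 fallen of 47 (14 and 8 stable; median 0.40). Receptors for lymph node entry and recirculation rose: Ccr7 stood at 684, 596, 604 and 555 CPM in WT and 1024, 969, 996 and 1016 CPM in Foxp3-deficient cells (log2FC 0.72, SE 0.094, adjusted p = 5.97e-05), and S1pr1, which guides T cells out of lymphoid organs, at 1012, 898, 991 and 759 CPM and 1676, 1291, 1240.2 and 1256 CPM (0.58). Gut, skin and inflammatory homing receptors rose also, among them Ccr9 (1.45), Ccr2 (1.16), Ccr6 (0.89) and Ccr4 (0.58), and Ltb4r1, the receptor for the leukocyte attractant leukotriene B4 (log2FC 2.13, SE 0.21, adjusted p = 3.42e-06). Ccr8, a receptor of tissue and tumour Treg cells, had 57.9, 66.2, 83.8 and 90.2 CPM in WT and 9.31, 7.98, 11.1 and 20.9 CPM in Foxp3-deficient cells (log2FC −2.59, SE 0.33, adjusted p = 1.19e-04), and the groups did not overlap. Gpr83, long used as a Treg marker (−1.54), Gpr34 (−2.17), the prostaglandin E2 receptor gene Ptger2 (−0.96) and the adenosine receptor gene Adora2a (−0.60) fell. S1pr5 (8.03) and Cx3cr1 (6.28), receptors of cytotoxic cells, rose from near 0, chiefly through Foxp3-deficient 5 (0, 0.307, 3.15 and 27.1 CPM and 0.379, 0, 2.38 and 24.3 CPM in the 4 Foxp3-deficient libraries), and lost their calls when any of the 4 WT libraries was left out (5.30 to 10.28 and 3.41 to 6.69 over the fits without 1 library).

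Adhesion molecules gave 7 risen and 9 fallen of 39 (4 and 9 stable; median −0.037). The integrin chains that release active TGF-beta or hold cells in epithelium fell. Itgae (CD103), the partner of integrin beta 7 on epithelial T cells, stood at 61.9, 45.2, 56.7 and 63.2 CPM in WT and 7.04, 3.93, 4.24 and 9.19 CPM in Foxp3-deficient cells (log2FC −3.21, SE 0.24, adjusted p = 2.92e-07), and Itgb8, which activates latent TGF-beta, fell (−2.19), as did its partner chain Itgav (−0.52). Sdc4, whose promoter is printed above, went from 26.7, 26.5, 29.6 and 25.7 CPM to 2.17, 1.78, 4.29 and 2.04 CPM (log2FC −3.40, SE 0.25, adjusted p = 1.72e-07), and Epcam from a mean of 25.6 to 3.27 CPM (−2.97). Itgb7, by contrast, rose (0.37), with Itgb3 (log2FC 0.99, SE 0.13, adjusted p = 5.82e-05) and Itga9 (1.09).

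Among neuropilins, semaphorins, plexins, ephrins and related receptors, 6 rose and 4 fell of 30 (3 and 3 stable; median −0.049). Nrp1, which marks Treg cells of thymic origin, had 466, 410.1, 466 and 435 CPM in WT and 108, 108, 133 and 182 CPM in Foxp3-deficient cells (log2FC −1.74, SE 0.13, adjusted p = 3.22e-07), and its relative Nrp2 rose from a low level (1.48), a call lost without Foxp3-deficient 1 or WT 3 (0.96 to 1.70 over the fits without 1 library). Axl stood at 79.3, 73.8, 88.1 and 102 CPM and 4.17, 5.71, 11.4 and 12.96 CPM (log2FC −3.31, SE 0.33, adjusted p = 1.23e-05). Sema4a, a ligand of neuropilin 1 on Treg cells, rose (log2FC 0.97, SE 0.14, adjusted p = 1.82e-04), so ligand and receptor moved in opposite directions, and the Notch regulator Dtx1 rose too (0.66).

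Enzymes of nucleotide and cyclic AMP signalling changed in both directions, 6 rising and 5 falling of 29 (5 and 4 stable; median 0.061). Pde3b, a phosphodiesterase that breaks down cyclic AMP and is repressed by Foxp3 in Treg cells, had 19.8, 25.7, 20.2 and 21.2 CPM in WT and 209, 182, 239 and 224 CPM in Foxp3-deficient cells (log2FC 3.30, SE 0.12, adjusted p = 2.00e-10). Pde4b (0.66), Pde4d (0.96) and Pde7a (0.66) rose with it, and Pde2a fell (−0.64). The surface enzymes that turn ATP into adenosine both fell, Entpd1 (CD39) from 53.8, 47.5, 54.9 and 47.6 CPM to 21.8, 18.4, 18.1 and 21.8 CPM (log2FC −1.35, SE 0.12, adjusted p = 1.14e-06) and Nt5e (CD73) by less (−0.47), as did Cd38 (−1.04). Dpp4 (CD26), which binds adenosine deaminase on conventional T cells, rose (0.60).

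**Figure D5:**
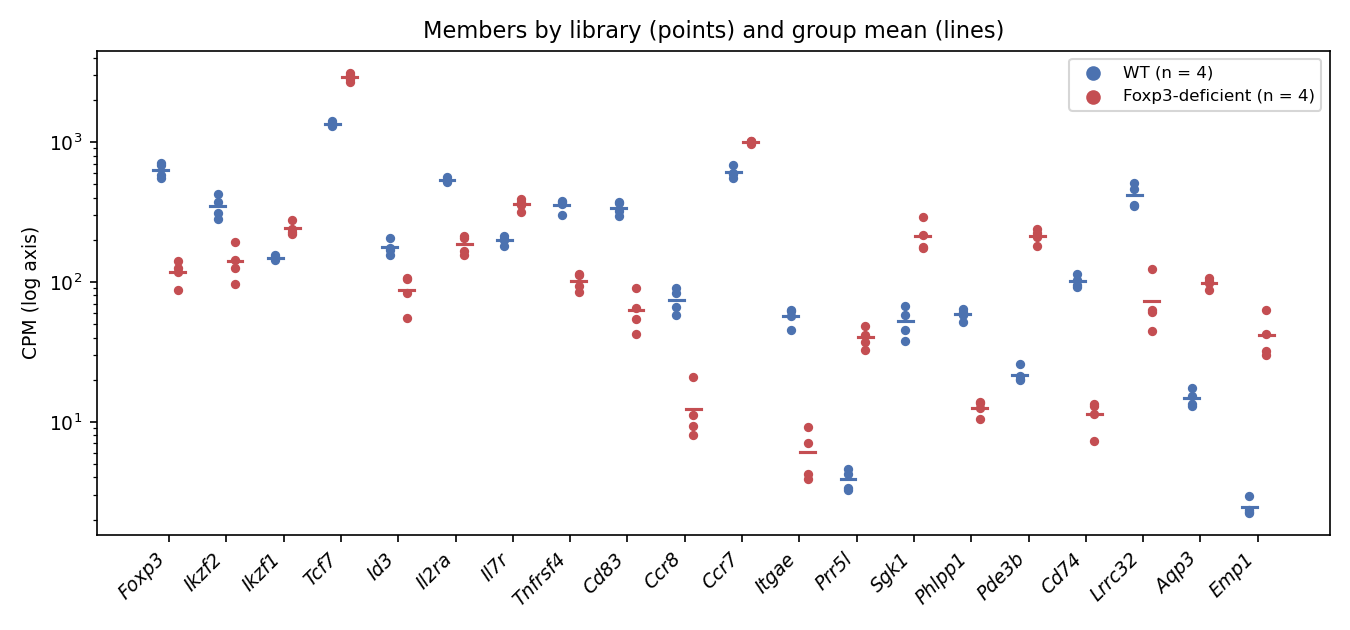
CPM by library (points; log axis) and group mean (lines) of 20 genes named in the text, 4 WT and 4 Foxp3-deficient libraries each. The groups do not overlap in any of the 20 genes, which were picked from genes already called. Among all genes tested, 17.8% have no overlap between the groups.

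Of the 43 proximal signalling genes of the T cell receptor, 11 rose and 2 fell (8 and 1 stable; median 0.12), and 29 had an interval within 1.5-fold. Themis, an adaptor that sets signal strength in T cell development, stood at 79.2, 87.4, 79.1 and 88.7 CPM in WT and 212, 255, 241 and 279 CPM in Foxp3-deficient cells (log2FC 1.56, SE 0.088, adjusted p = 8.53e-09). The exchange factor gene Rasgrp2 (log2FC 1.09, SE 0.12, adjusted p = 1.09e-05), the protease gene Malt1 (0.60), the diacylglycerol kinase gene Dgka (0.59) and Lck (0.34) rose. The adaptor gene Sh2d1a (SAP), used by follicular helper cells, was the stable fall (−0.83).

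Feedback phosphatases and cytokine signal inhibitors gave 4 risen and 8 fallen of 43 (3 and 7 stable; median 0.069). Cish and the Socs genes encode inhibitors of cytokine signals that cytokines induce, and they moved in both directions. Cish had 228, 229, 233 and 192 CPM in WT and 131, 114, 109 and 94.1 CPM in Foxp3-deficient cells (log2FC −0.97, SE 0.10, adjusted p = 5.91e-06), and Socs1 fell by a similar amount (−0.84). Socs2 (0.73) rose, as did the MAP kinase phosphatase genes Dusp10 (log2FC 1.42, SE 0.20, adjusted p = 2.64e-04) and Dusp6 (0.78), while the receptor phosphatase genes Ptprj (−2.07) and Ptpn13 (−1.03) fell. NF-kB factors and their regulators held 1 risen and 6 fallen members of 37 (0 and 4 stable), of which Traf1, a partner of TNF receptors, fell from 548, 529.6, 568 and 509 CPM to 426, 393, 374 and 339 CPM (log2FC −0.49, SE 0.076, adjusted p = 2.89e-04) and Relb less (−0.36). Within this list 20 members had an interval within 1.5-fold.

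The PI3K, AKT, SGK and mTOR pathway held large changes in a few regulators: 9 rose and 5 fell of 49 (5 and 4 stable; median 0.069), and 32 had an interval within 1.5-fold. Prr5l, whose protein associates with mTOR complex 2, stood at 4.598, 3.39, 4.26 and 3.24 CPM in WT and 48.3, 37.3, 32.9 and 41.96 CPM in Foxp3-deficient cells (log2FC 3.37, SE 0.16, adjusted p = 2.62e-09). Sgk1, a kinase that mTOR complex 2 activates, stood at 37.9, 67.7, 45.5 and 57.8 CPM and 173, 289, 178 and 216 CPM (log2FC 2.04, SE 0.19, adjusted p = 5.29e-06). Phlpp1, a phosphatase that removes an activating mark of AKT, moved the other way, from 64.4, 57.6, 60.6 and 51.98 CPM to 12.6, 10.4, 13.6 and 13.9 CPM (log2FC −2.21, SE 0.12, adjusted p = 5.76e-09). All 3, named from called genes, separated the groups without overlap, as did 17.8% of all genes tested. The catalytic subunit gene Pik3cd (0.43) and the regulatory subunit gene Pik3r5 (0.55) rose and the lipid phosphatase gene Inpp4b fell (−0.61). Rictor itself rose slightly (log2FC 0.35, SE 0.11, adjusted p = 0.0494), and this call was lost without Foxp3-deficient 1 or 4 or WT 1, 3 or 5 (0.24 to 0.41 over the fits without 1 library).

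Ion channel and calcium genes rose more often than they fell, 9 against 3 of 37 (7 and 2 stable; median 0.16). The potassium channel gene Kcnk5 had 12.998, 11.7, 10.9 and 11.8 CPM in WT and 44.8, 36.7, 32.8 and 52.7 CPM in Foxp3-deficient cells (log2FC 1.82, SE 0.16, adjusted p = 1.19e-06). Tmem176a (1.89) and Tmem176b (log2FC 1.80, SE 0.23, adjusted p = 4.03e-05), a pair of cation channel genes, rose, and so did the calcium entry genes Stim1 (0.66) and Orai2 (0.82) and the calcium pump gene Atp2a3 (0.57). Kcna3, a potassium channel of activated T cells, fell (−0.57).

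Of 39 cell death regulators tested, 8 fell and 3 rose, and 19 had an interval within 1.5-fold (7 and 2 stable; median −0.08). Bid, which links death receptors to mitochondria, had 68.1, 68.03, 71.7 and 67.3 CPM in WT and 34.2, 37.6, 30.8 and 36.4 CPM in Foxp3-deficient cells (log2FC −0.99, SE 0.09, adjusted p = 1.87e-06). The inflammatory caspase gene Casp4 (−1.22) and the necroptosis effector gene Mlkl (−1.97) fell also, with the survival gene Bcl2l1 (−0.43). The kinase genes Pim1 (−0.77) and Pim2 (0.69), relatives that support survival, moved in opposite directions.

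The called members of the replication, mitosis and cyclin lists all rose. Of 34 replication genes, 11 rose and 0 fell (5 stable; median 0.28); of 30 mitosis genes, 14 rose and 0 fell (5 stable; median 1.04). Rrm2, a subunit of the enzyme that makes deoxynucleotides, had 17.4, 16.9, 21.4 and 16.9 CPM in WT and 53.9, 25.2, 24.9 and 40.6 CPM in Foxp3-deficient cells (log2FC 0.99, SE 0.22, adjusted p = 0.00545). Ccna2, the cyclin of S and G2 phase, had 3.69, 2.22, 5.66 and 2.57 CPM and 17.4, 4.603, 6.15 and 13.6 CPM (log2FC 1.55, SE 0.39, adjusted p = 0.0135), low levels in every library. E2f1 (1.23), Uhrf1 (0.88), Stmn1 (1.25) and Aurka (0.84) rose too. Mki67, the usual marker of cycling cells, did not pass (log2FC 0.75, SE 0.25, adjusted p = 0.0578; 95% interval 0.22 to 1.29). The summed level of the mitosis list ran from 142 to 218 CPM in WT and from 203 to 443 CPM in Foxp3-deficient libraries, so the groups overlapped in that sum. The counts of this list depended on single libraries: 8, 24 and 6 mitosis genes rose without Foxp3-deficient 1, 3 or 5, and 6, 5 and 6 without WT 1, 3 or 5. Of the replication genes, 6 rose without Foxp3-deficient 1, 6 without Foxp3-deficient 5, 5 without WT 3 and 7 without WT 4 or 5. Neither list had a fallen member in any of these fits, in DESeq2, in limma-voom or at an unadjusted p under 0.05. DESeq2 called 22 mitosis genes and limma-voom 7. Among cyclins D and cell cycle inhibitors 6 of 22 rose and 0 fell, with Ccnd3 (0.49) and the inhibitor gene Cdkn2d (0.56) stable. In this list 3 members were lower at an unadjusted p under 0.05, and DESeq2 called 8 risen and 1 fallen and limma-voom 7 risen and 0 fallen; 2 to 8 rose over the fits without 1 library.

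Among S100 proteins, annexins, galectins and actin-binding proteins, 12 rose and 8 fell of 40 (9 and 5 stable; median 0.21). Pdlim4, which encodes a protein of actin fibres, was near absent in WT at 0.227, 0.246, 0.0734 and 0.0421 CPM and stood at 11.04, 17.6, 22.99 and 23.97 CPM in Foxp3-deficient cells (log2FC 7.11, SE 0.38, adjusted p = 4.65e-09). Emp1, whose promoter is printed above, stood at 2.33, 2.28, 2.94 and 2.23 CPM and 30.1, 42.6, 31.9 and 63.4 CPM (log2FC 4.09, SE 0.23, adjusted p = 1.18e-08). Flna, a crosslinker of actin, rose from 1114, 1118, 1123 and 1112 CPM to 2282, 1838, 1887 and 2116 CPM (0.86), with Anxa2 (0.93) and Nebl (2.40). The fallen members included Ttn, known for its muscle protein, from 67.1, 90.1, 87.9 and 103 CPM to 9.64, 4.97, 21.1 and 13.96 CPM (log2FC −2.80, SE 0.34, adjusted p = 8.00e-05), the membrane ruffling gene Swap70 (−1.32), the motor gene Myo1e (−1.07) and Capg (−0.62).

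Granule proteins, proteases and NK lectin receptors gave 10 risen and 6 fallen of 37 (9 and 5 stable; median −0.10). Ggt5, a gamma-glutamyl transferase that also acts on leukotrienes and S-geranylgeranyl-glutathione, had 0.965, 0.616, 0.955 and 0.927 CPM in WT and 35.2, 37.9, 32.5 and 19.4 CPM in Foxp3-deficient cells (log2FC 5.14, SE 0.26, adjusted p = 3.09e-09), and its relative Ggt1 rose too (3.10). Serpinb1a, a protease inhibitor found in cells of the interleukin 17 type, had 2.498, 3.51, 2.57 and 3.33 CPM and 15.6, 24.3, 17.9 and 20.5 CPM (log2FC 2.72, SE 0.20, adjusted p = 2.09e-07). Serpina3g, another protease inhibitor whose paralogs may share reads with it, fell from 123, 111, 136 and 136 CPM to 15.5, 42.7, 30.4 and 47.9 CPM (−1.89), as did the cathepsin inhibitor gene Cst7 (log2FC −1.87, SE 0.25, adjusted p = 1.32e-04). The lectin receptor gene Klrg1, a marker of effector Treg cells, fell from 75.04, 55.8, 76.2 and 58.5 CPM to 2.33, 1.23, 2.69 and 27.2 CPM (−2.95), with Foxp3-deficient 5 nearest to WT, and its call was lost without Foxp3-deficient 1, 3 or 4 or any WT library (−4.98 to −2.60 over the fits without 1 library).

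In antigen presentation 5 of 25 tested genes fell and 0 rose (4 stable; median −0.17). Cd74, the chaperone of MHC class II molecules, had 95.7, 92.7, 102 and 114 CPM in WT and 7.31, 13.4, 13.1 and 11.4 CPM in Foxp3-deficient cells (log2FC −3.16, SE 0.16, adjusted p = 4.12e-09). Since B cells also express Cd74 strongly, the B cell markers above stand beside this value. H2-Q6 (−1.04) and H2-Q7 (−0.503) fell, near-identical class I genes that can share reads. Interferon-induced genes fell in 11 and rose in 2 of 42 (9 and 0 stable; median −0.16). Ly6e, a GPI-anchored protein, stood at 2366, 2298, 2295 and 2207 CPM in WT and 800.3, 1213, 1329 and 1178 CPM in Foxp3-deficient cells (log2FC −1.02, SE 0.12, adjusted p = 1.59e-05). Oas1a (−1.41), Ifi44 (−1.22), Ly6c1 (−1.27) and the GTPase genes Gbp3 (−0.80) and Gbp5 (−0.77) fell with it, several of them members of families with similar copies.

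Among chromatin regulators, 4 of 44 rose, 4 fell (2 and 3 stable; median 0.10), and 33 had an interval within 1.5-fold. Hdac9, a class II deacetylase, was the largest change, from 7.95, 9.79, 9.47 and 8.76 CPM to 1.89, 0.184, 1.705 and 1.47 CPM (log2FC −2.75, SE 0.51, adjusted p = 0.001503), and its relative Hdac5 rose (0.55). Among named noncoding RNAs, the host gene of miR-155, Mir155hg, fell from 7.95, 4.62, 7.23 and 3.496 CPM to 1.52, 3.68, 1.03 and 2.12 CPM (log2FC −1.49, SE 0.37, adjusted p = 0.0119). Treg cells depend on that miRNA for their competitive fitness.

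Solute carriers gave 7 risen and 10 fallen of 43 (5 and 8 stable; median −0.12). Slc2a3, a high-affinity glucose transporter, had 222, 197, 204 and 197 CPM in WT and 75.7, 77.5, 65.9 and 76.5 CPM in Foxp3-deficient cells (log2FC −1.47, SE 0.079, adjusted p = 4.88e-09), and the lactate exporter gene Slc16a3 fell (−1.24) while its relative Slc16a5 rose (log2FC 1.66, SE 0.20, adjusted p = 2.89e-05). The urea transporter gene Slc14a1 (−1.02) and the zinc importer gene Slc39a4 (−1.04) fell. Few enzymes of glycolysis passed: of 27 tested, 0 rose and 1 fell, and 17 had an interval within 1.5-fold. DESeq2 called 3 risen and 3 fallen, limma-voom 0 risen and 3 fallen, and 4 were higher and 4 lower at an unadjusted p under 0.05. The gene called by edgeR, Aldoc (−0.82), was lost without Foxp3-deficient 1, 3 or 4 or WT 1, 4 or 5 (−1.02 to −0.71 over the fits without 1 library). Genes of sterol and fatty acid metabolism gave 7 risen and 2 fallen of 48 (4 and 1 stable), among them Cpt1a, which admits fatty acids to mitochondria (0.55), and the phospholipid transfer gene Pltp, low in all libraries (0.09804 to 1.43 CPM, 3.71). In the tricarboxylic acid cycle, Idh2 (log2FC 0.60, SE 0.091, adjusted p = 2.61e-04) and Me2 (0.36) were the stable rises among 22 genes, and 21 of the 22 had an interval within 1.5-fold.

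The protein synthesis and degradation machinery showed few or no calls. None of 78 cytosolic ribosomal protein genes, 37 proteasome subunit genes or 60 translation factor genes passed edgeR's test, and 1 of 73 mitochondrial ribosomal and 1 of 71 nuclear oxidative phosphorylation genes did. Intervals within 1.5-fold were reached by 55 of the translation factors, 32 of the proteasome genes, 48 of the mitochondrial ribosomal genes, 35 of the oxidative phosphorylation genes and 27 of the cytosolic ribosomal genes. At an unadjusted p under 0.05, edgeR's test listed 5 cytosolic ribosomal genes (2 higher, 3 lower), 1 proteasome gene (lower) and 6 translation factor genes (3 higher, 3 lower). DESeq2 called 3, 1 and 2 genes of these lists and limma-voom 0, 0 and 2. For the rest of these genes the data do not bound a difference to 1.5-fold. Heat shock genes gave 1 call of 18, and 2 intervals were within 1.5-fold; their members Hspa1a and Hspa1b are described above.

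Outside all lists, the 15 stable rises and 15 stable falls of largest size at a mean of at least 10 CPM were in genes of varied function. The largest rise was Ifi204, a DNA sensor of a family with similar copies, at 0.624, 0.493, 0.514 and 0.463 CPM in WT and 29.02, 7.67, 27.9 and 15.1 CPM in Foxp3-deficient cells (log2FC 5.24, SE 0.42, adjusted p = 4.58e-07). Fam20a stood at 2.498, 1.97, 3.01 and 1.39 CPM and 28.5, 30.1, 26.2 and 21.6 CPM (log2FC 3.57, SE 0.22, adjusted p = 1.90e-08), and Aqp3, a channel for water, glycerol and hydrogen peroxide, at 17.5, 13.4, 15.3 and 12.9 CPM and 102, 106, 97.8 and 87.5 CPM (log2FC 2.73, SE 0.14, adjusted p = 4.28e-09). Vipr1, the receptor for vasoactive intestinal peptide, stood at 20.2, 21.5, 18.3 and 19.7 CPM and 107, 98.2, 92.2 and 98.6 CPM (2.32). Igfbp4, which binds insulin-like growth factors and is seen in naive T cells, stood at 204, 196, 202 and 229.7 CPM and 583, 423, 819.7 and 677 CPM (1.59). The others were the repair gene Fancd2 (2.26), the sulfotransferase genes Ust (2.05) and Hs3st3b1 (1.64), the membrane protease gene Mmp14 (1.94), the integrin chain gene Itga7 (1.60), the cytochrome gene Cyp2s1 (1.86), Rell1 (1.96), Tdrp (1.88), Rap1gap2 (1.75) and Mctp2 (1.58).

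Among the falls outside the lists, Lrrc32 led. It encodes GARP, which presents latent TGF-beta on activated Treg cells, and it stood at 513, 357, 461 and 346 CPM in WT and 124, 62.9, 61.4 and 44.6 CPM in Foxp3-deficient cells (log2FC −2.52, SE 0.27, adjusted p = 4.65e-05). Itgb8, the integrin chain described above, acts on the TGF-beta that this protein holds. Nrn1 (neuritin), a secreted protein of anergic and regulatory T cells, had 56.3, 52.9, 63.4 and 58.2 CPM and 10.2, 8.899, 13.5 and 17.9 CPM (log2FC −2.18, SE 0.20, adjusted p = 1.56e-06), and Abcb1a, a drug efflux pump, 83.8, 86.4, 77.4 and 86.6 CPM and 25.01, 23.8, 24.6 and 30.7 CPM (−1.68). The remaining ones were Naip5 (−2.30), a sensor of bacterial flagellin with similar copies, Tmbim1 (−2.25), the protease gene St14 (−2.06), the laminin receptor gene Bcam (−2.04), the villin-like gene Vill (−2.004), the giant muscle protein gene Neb (−1.88), Mctp1 (−1.83), the amino acid sensing GTPase gene Rragd (−1.76), Ggt7 (−1.65), the sorting nexin gene Snx9 (−1.64), Enpp5 (−1.63) and Dnah7a (−1.66). Pairs of relatives moved apart here as well: Mctp2 rose and Mctp1 fell, and Ggt1 and Ggt5 rose while Ggt7 fell.

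A few transcripts were close to off in 1 group, with at most 3 reads over its 4 libraries and at least 20 reads in every library of the other. In WT these were Tmeff2, a membrane protein of the brain and prostate, with 1, 0, 0 and 0 reads in WT and 70, 101, 73 and 46 reads in Foxp3-deficient libraries (319-fold by CPM, 95% counting interval 56.8 to 12631), the forkhead gene Foxf2 with 0 reads against 40, 60, 33 and 48 (at least 66.3-fold higher taking 3 reads over the 4 WT libraries as the floor), and Ppp1r14c, a phosphatase inhibitor, with 0 reads against 43, 42, 30 and 27 (at least 52.0-fold higher). In Foxp3-deficient cells they were Vegfc, a lymphatic growth factor, with 32, 33, 69 and 46 reads in WT and 1 in all Foxp3-deficient libraries (164-fold lower, interval 29.0 to 6505), the netrin receptor gene Neo1 with 34, 22, 30 and 93 reads and 0 (at least 54.3-fold lower), Lhfpl1 with 26, 31, 38 and 34 reads and 1, and Fam69c with 77, 53, 121 and 68 reads and 3. Intervals and floors cover counting error only. They leave out the spread between libraries, and the genes were chosen by the same reads, so large ratios follow from the rule. The immunoglobulin segment Ighg3 met the same rule, with 252 reads in WT and 3 in Foxp3-deficient libraries, and stands beside the B cell markers above.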

How the data were processed

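Per the labels, RNA of double-sorted splenic Treg cells was turned into cDNA (SMART-Seq v4, a kit for small inputs) and sequenced. The authors deposited raw counts per gene and library. STAR 2.5.1b aligned the reads to mm10 (GRCm38) and HTSeq counted them, per the submitters' processing notes; the strand setting is not given in the sources used here. Reads assigned to genes made up 60.9% to 65.3% of all counted reads, and the HTSeq summary rows were left out of library sizes and tests. Positions came from GENCODE M21 (GRCm38), to which 97.5% of the 25189 genes matched.

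The test was edgeR's (version 4.0.16, R 4.3.3) robust quasi-likelihood test after filterByExpr and TMM scaling (1 fit over all 12 libraries without covariates, Benjamini-Hochberg adjustment). CPM also used the TMM factors, and log2 CPM for the principal component analysis had a prior count of 2. Scripts were tested on simulated data. Alternatives were other scalings and filters, DESeq2 1.42.0, limma-voom (limma 3.58.1), a fit of the 8 libraries alone, a replicate block, removal of length and GC trends, and leaving out libraries.

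The comparison, the 48 gene lists and the rules were chosen with earlier results of these data known. Named were Foxp3; per list the 2 risen and 2 fallen stable members with the smallest adjusted p, or the 2 with the highest CPM where fewer than 2 were stable; other called members with their fold change; outside the lists the 15 risen and 15 fallen stable genes of largest change whose mean reached 10 CPM and whose groups did not overlap; the 10 genes of largest spread in Foxp3-deficient libraries whose mean there reached 20 CPM; and genes near off in 1 group. Unnamed gene models, pseudogenes and receptor segments outside lists were left out. Bank1, Cd3e, Cd79a, Cd79b, Cd8a, Ctla4, Ebf1, Fcmr, Gata1, Ighd, Ighg3, Il10, Itgam, Mki67, Pax5, Ppp1r3fos, Prf1, Syp, Tbx21 and Tgfb1 were chosen after their values were seen. Some genes that the rule named are not reported here.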

Additional observations from a re-analysis of the deposited data

Results flagged for a closer look

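In each group of 4 libraries, the highest or lowest value of the named genes was compared with the other 3 by the gap to the nearest of them over the whole range (Dixon's test). Chance marks about 1 in 20 groups, and 43 of 610 were marked. The named genes include the 10 chosen for their spread in Foxp3-deficient libraries and some chosen after their values were seen. For those genes the share expected by chance does not hold. In 8 of the 43 the other 3 libraries had 0 reads and the marked one 1 to 4 reads, so that the ratio is 1 whatever the count and the mark says nothing. These were Fam69c (0.155 CPM), Lhfpl1 (0.0517 CPM) and Vegfc (0.0517 CPM) in Foxp3-deficient 4, Cd163l1 (0.227 CPM), Il17f (0.0568 CPM) and Tmeff2 (0.0568 CPM) in WT 1, Il17a (0.0367 CPM) in WT 4 and S1pr5 (0.0842 CPM) in WT 5. Of the 599 groups with reads in at least 2 libraries, 35 were marked, and their values follow. Far means far against the spread of the other 3 libraries, so some marked values differ little in size. Foxp3-deficient 1 stood far above the other libraries of its group for Pik3r5 at 241 CPM (the others 201 to 208), S1pr1 at 1676 CPM (the others 1240.2 to 1291) and Vcam1 at 1.35 CPM (the others 0.3901 to 0.4296). Foxp3-deficient 1 stood far below the other libraries of its group for Cd81 at 52.6 CPM (the others 73.5 to 76.6) and Tnfrsf18 at 93.3 CPM (the others 137 to 145). Foxp3-deficient 3 stood far above the other libraries of its group for Dusp10 at 371 CPM (the others 169 to 195) and Il17f at 5.46 CPM (the others 0.487 to 1.24). Foxp3-deficient 3 stood far below the other libraries of its group for Mctp2 at 17.3 CPM (the others 27.05 to 27.9), Ptger2 at 25.1 CPM (the others 50.1 to 51.04) and Tnfrsf9 at 70.2 CPM (the others 94.95 to 97.98). Foxp3-deficient 4 stood far above the other libraries of its group for Dnah7a at 8.27 CPM (the others 4.296 to 4.44) and Sdc4 at 4.29 CPM (the others 1.78 to 2.17). Foxp3-deficient 4 stood far below the other libraries of its group for Slc2a3 at 65.9 CPM (the others 75.7 to 77.5). Foxp3-deficient 5 stood far above the other libraries of its group for Cx3cr1 at 24.3 CPM (the others 0 to 2.38), Icos at 165 CPM (the others 97.5 to 109) and Il18rap at 83.1 CPM (the others 10.01 to 19.6). The same held for Klrg1 at 27.2 CPM (the others 1.23 to 2.69), Nkg7 at 107 CPM (the others 8.17 to 18.96) and S1pr5 at 27.1 CPM (the others 0 to 3.15). The same held for Tbx21 at 113 CPM (the others 19.1 to 26.9). Foxp3-deficient 5 stood far below the other libraries of its group for Ifi44 at 1.43 CPM (the others 4.08 to 4.42) and Lta at 44.4 CPM (the others 53.6 to 54.7). WT 1 stood far above the other libraries of its group for Cd8b1 at 21.1 CPM (the others 17.1 to 17.6) and Pde2a at 271 CPM (the others 219 to 228). WT 1 stood far below the other libraries of its group for Tnfsf8 at 98.03 CPM (the others 109 to 111). WT 3 stood far above the other libraries of its group for Lhfpl1 at 1.91 CPM (the others 1.395 to 1.48). WT 3 stood far below the other libraries of its group for Ggt5 at 0.616 CPM (the others 0.927 to 0.965) and Tnfrsf1b at 509.8 CPM (the others 625 to 641). WT 4 stood far above the other libraries of its group for Emp1 at 2.94 CPM (the others 2.23 to 2.33) and Rrm2 at 21.4 CPM (the others 16.9 to 17.4). The same held for Sox4 at 29.3 CPM (the others 21.5 to 22.1). WT 4 stood far below the other libraries of its group for Ly6c1 at 81.3 CPM (the others 102 to 103). WT 5 stood far above the other libraries of its group for Dars at 317 CPM (the others 276 to 279). WT 5 stood far below the other libraries of its group for Cish at 192 CPM (the others 228 to 233) and H2-Q6 at 644 CPM (the others 710.04 to 723).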

How the results depend on the processing

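The number of genes called was 1812, and it ran from 1299 (a stricter filter, with 4 libraries at 1 CPM or more and a mean of 5 CPM or more) to 2231 (DESeq2) over the alternatives that kept all 8 libraries, with 1439 when only these 8 libraries were fitted and 1868 by limma-voom. Under the stricter filter, which tests fewer genes of low level, the number called with at least a 2-fold difference was 340 in place of 781. With length and GC trends removed, 2211 genes were called, 1343 of them risen. Leaving out 1 library gave 1332 to 1949 called genes, 682 to 1035 risen, 650 to 924 fallen, 659 to 816 with at least a 2-fold difference and 6171 to 6840 within 1.5-fold. The replicate numbers were not taken as pairs, because the labels do not tell whether same-numbered libraries share a mouse. Across genes, the deviations of same-numbered WT and Foxp3-deficient libraries correlated at 0.157, 0.102, 0.029 and 0.203 for replicates 1, 3, 4 and 5. Those of differently numbered libraries correlated from −0.261 (WT 5 and Foxp3-deficient 1) to 0.188 (WT 4 and Foxp3-deficient 1). Whether the libraries are paired was not tested. The replicate block gave 1783 called genes, against 1812 without it. With only the 8 libraries it gave 1661, against 1439 without it. Of 298 named genes under all alternatives (5625 values), none changed direction with its call. In 81 values a call was lost, all in 16 genes, and in 38 a gene not called became called. Besides the losses without 1 library given above, calls were lost by Irf4, Pdcd1, Klrg1, Batf, Rictor and Tigit with only the 8 libraries, by Irf4 and Klrg1 with the replicate block on those 8, by Pdcd1, Klrg1, Batf, Tigit, S1pr5, Cx3cr1, Ccna2 and Slc14a1 without a filter, by Irf4, Pdcd1 and Kcna3 with length and GC trends removed, by Rictor with upper quartile scaling, the stricter filter or limma-voom, by S1pr5 and Cx3cr1 with limma-voom, and by Pdcd1, Klrg1, Batf, Aldoc, Foxp1, Nt5e and Bcl2l1 without both Foxp3-deficient 1 and 3. The cause was not tested. Of 1824 list counts, 238 moved by more than 1.5 times, so small list counts depend on the setting. A longer window for promoter motifs was not run, since the motif shares are void. Depth bounds the low transcripts: those at a few reads per library have wide intervals.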
